A study of Drosophila melanogaster with 3 samples.

Results

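The genes described here are 46 protein-coding genes of Drosophila melanogaster, of 13968 in the annotation, that encode the machinery of DNA replication. They were chosen by name to cover origin licensing, origin firing, the replication fork and the supply of deoxynucleotides. All 46 symbols were found in the annotation. A gene was called bound when the summit of a region in the authors' thresholded list lay within 500 bp of a transcription start site (TSS) of that gene, and by this rule 15 of the 46 were bound.

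The study is a chromatin immunoprecipitation and sequencing experiment on chiffon (chif). Pooled male and female whole embryos, 0 to 24 h old, carried a stable transgene for chif with GFP at its C-terminus, and the strain name gives the transcript chif-RB. An antibody against GFP recovered the tagged protein with its DNA from sonicated chromatin, and the labels give fragments of 200 to 800 bp. The only group held 3 biological replicates, each of pooled embryos of that line, so no comparison between conditions exists. A gene counted as bound is thus one with a region listed after GFP recovery, and no library of untagged embryos was analysed here. The label of whole embryo could not be checked against marker genes, because the lists hold no expression values. Each replicate and the pooled reads gave a list of 30000 regions, and the thresholded list held 5035 regions, which were the 5035 pooled regions of highest signal. The signal is the authors' own score for a region, read here only within 1 list, and the rank is the place of a region by signal, with rank 1 the highest. The number of reads behind each list is unknown, and 1 control file served every list.

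Replication begins when the origin recognition complex (ORC) marks an origin and, with Cdc6 and Cdt1, loads the ring-shaped MCM helicase. The Cdc7 kinase, switched on by a Dbf4-type partner, then acts on MCM so that Cdc45 and the GINS complex can join and the fork can start. The chif gene encodes a partner of this type in flies. Whether the protein recovered through its C-terminal GFP is that partner was not tested here. Many fly replication genes are known for promoters with the DNA replication-related element (DRE), read by the factor Dref, or with sites for E2F, the factor that turns on genes of S phase.

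The sequence at the summits of bound genes is shown first, because none of the motifs searched was in all of the windows. Each line is the reference sequence 5′ to 3′ on the strand of the gene, from 60 bp before to 60 bp after the summit and without annotated untranslated sequence, and capitals mark any match to the motifs DRE, E2F, M1BP, both E-boxes, GAGA, Zelda and TATA on either strand. PolD2 (chr3L:1775493-1775613, plus strand, dm6), chif (chr2L:16350307-16350427, minus) and Top1 (chrX:15323341-15323461, plus) had the counted regions of highest signal among the bound genes, and Mcm2 (chr3R:8264829-8264949, plus) shared its region with RPA1. PolA1 (chr3R:21671751-21671866, minus) and Top2 (chr2L:19453513-19453633, minus) are added for the DRE close to the summit, a choice made after the motifs had been seen.
PolD2: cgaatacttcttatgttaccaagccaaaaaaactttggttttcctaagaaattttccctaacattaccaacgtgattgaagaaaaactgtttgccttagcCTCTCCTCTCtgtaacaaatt
chif: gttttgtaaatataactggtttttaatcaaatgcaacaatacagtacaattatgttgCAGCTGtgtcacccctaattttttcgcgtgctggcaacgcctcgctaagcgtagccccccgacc
Top1: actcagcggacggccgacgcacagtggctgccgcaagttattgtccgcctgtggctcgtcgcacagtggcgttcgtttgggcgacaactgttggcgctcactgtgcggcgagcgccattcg
Mcm2: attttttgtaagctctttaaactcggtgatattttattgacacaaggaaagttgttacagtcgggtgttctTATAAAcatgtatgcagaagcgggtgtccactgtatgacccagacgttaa
PolA1: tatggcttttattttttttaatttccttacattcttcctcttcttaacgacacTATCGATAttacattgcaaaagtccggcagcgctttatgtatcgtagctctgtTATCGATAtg
Top2: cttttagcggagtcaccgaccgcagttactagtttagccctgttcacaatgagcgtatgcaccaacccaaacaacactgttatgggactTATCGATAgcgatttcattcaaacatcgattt
The PolD2 window held 2 GAGA matches, which began 40 and 45 bp after the summit, and the chif window held the E-box CAGCTG across the summit itself. The Top1 window held none of the marked motifs. In Mcm2 the single capital run is a TATA box. The summit windows of PolA1 and Top2 held 2 and 1 copies of the DRE.

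Promoters of 4 genes that were not bound are shown for contrast, as up to 120 bp before the TSS with untranslated sequence of other genes left out. Prim2 (chr3L:20361586-20361705, minus strand, dm6), RfC4 (chr3L:4136039-4136158, minus) and RnrL (chr2L:10327944-10328063, minus) had no region in the pooled list within 500 bp of a TSS. Orc5 (chr2L:13829742-13829836, plus) had a weak one. These 4 were picked after their motifs had been seen.
Prim2: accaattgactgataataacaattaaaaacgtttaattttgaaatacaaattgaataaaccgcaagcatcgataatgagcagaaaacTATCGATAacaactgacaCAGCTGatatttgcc
RfC4: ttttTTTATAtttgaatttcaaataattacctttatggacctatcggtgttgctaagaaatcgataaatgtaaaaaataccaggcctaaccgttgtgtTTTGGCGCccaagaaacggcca
RnrL: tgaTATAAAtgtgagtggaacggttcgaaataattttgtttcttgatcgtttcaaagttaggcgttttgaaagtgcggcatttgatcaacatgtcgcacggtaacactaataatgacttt
Orc5: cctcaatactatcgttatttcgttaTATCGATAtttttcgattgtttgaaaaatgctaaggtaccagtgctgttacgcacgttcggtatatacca
Prim2 held a DRE 33 bp before its TSS and Orc5 held one 70 bp before it, and RfC4 held an E2F site 22 bp before its TSS. A match to a motif describes these letters and is not by itself a site of binding.

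Chif-eGFP regions lay at 15 of the 46 replication genes, which is 32.6% (95% Clopper-Pearson interval 19.5 to 48.0%), while 20.6% of all protein-coding genes were bound. The background share lay inside that interval, which covers counting error only. The 15 bound genes had 14 regions between them, because Mcm2 and RPA1 shared 1. They were PolD2, chif, Top1, RnrS, dpa, CG8142, Mcm2, RPA1, dup, Psf1, Prim1, PolA1, Top2, Mcm5 and Cdc7, in order of signal. They fell into 9 of the 10 functional groups, or 7 at a TSS distance of 250 bp, and none of the 5 ORC genes was bound. The groups held only 2 to 8 genes each, and several had a single bound gene, so this spread was not read as a result. When the region itself had to overlap a TSS, 9 of the 46 genes (19.6%, with 13.3% of all genes) in 6 groups were bound, and GINS, single-strand binding and nucleotide supply then had none.

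In the separate replicates the count of bound replication genes stayed close to that of the thresholded list. In the 5035 regions of highest signal of each replicate, called its top regions, replicate 1 held 16 of the 46 genes (34.8%, with 21.1% of all genes), replicate 2 held 13 (28.3%, with 15.9%) and replicate 3 held 13 (28.3%, with 20.9%). The thresholded regions that held a top summit of all 3 replicates gave 12 genes (26.1%, with 11.3% of all genes). With replicate 1 left out of account, regions backed by replicates 2 and 3 gave 12 genes with a background of 12.5%. In the same way replicates 1 and 3 gave 13 with 16.6%, and replicates 1 and 2 gave 12 with 12.0%. In the higher-signal part of the list, its first 2517 regions, 12 of the genes were bound, with 11.4% of all genes. Of the 15 genes, 2 or 3 were thus lost under these stricter lists, and the background share fell from 20.6% to between 11.3% and 16.6%.

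**Figure D1:**
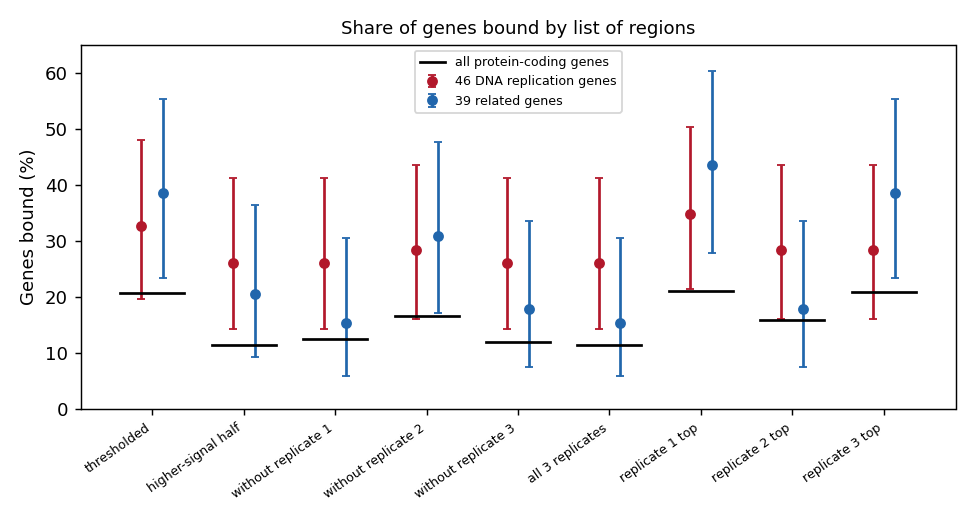
Share of genes bound (%, vertical axis) in 9 lists of regions (horizontal axis) for the 46 replication genes and 39 related genes, with 95% Clopper-Pearson intervals as bars, and for all protein-coding genes as a black line. The share of the replication genes ran from 26.1% to 34.8% and lay above the black line in each list shown, and the interval of the replication genes reached below the line in the thresholded list, the list without replicate 2 and the top regions of replicate 3.

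None of the 5 listed ORC genes was bound, a count too small to read against the background of 20.6%. Orc1, Orc2, Orc4, Orc5 and Orc6, which encode subunits of the ORC, had no thresholded summit within 500 bp of a TSS. For genes that were not bound, a rank in a replicate is that of its strongest region within 500 bp of a TSS, which need not be the same region as in the pooled list. The strongest pooled region at Orc1 had a signal of 90.8 and rank 6138, with the summit 3 bp upstream of the TSS. Orc4 had a region of rank 8182 at 123 bp upstream, Orc2 one of rank 10920 at 215 bp upstream and Orc5 one of rank 23605 at 59 bp upstream. Orc6 had none in the pooled list and regions of rank 17712 and 14480 in replicates 1 and 3. At Orc1 the ranks were 5882 in replicate 1 and 5050 in replicate 3, with no region in replicate 2, so that it lay just outside the top regions of replicate 3. The gene of another subunit, Orc3 (lat), was in the list of further genes and was not bound either, with a pooled region of rank 11893.

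The MCM helicase had 3 of its 6 subunit genes bound, dpa, Mcm2 and Mcm5, and 2 with regions backed by all 3 replicates. As for the ORC, the groups are too small for their counts to be read against the background of 20.6%. The gene dpa, the fly gene for the Mcm4 subunit, had the strongest of these regions, with a signal of 278.5, rank 1304 and ranks 992, 2009 and 1387 in replicates 1, 2 and 3. Its summit (2R:7500003) lay in the 5′ UTR, 126 bp upstream of an internal TSS and 142 bp downstream of the outer TSS. It was also 144 bp upstream of didum, a myosin gene. The Mcm2 summit (3R:8264889) was intergenic, 81 bp upstream of Mcm2, with a signal of 230.3 and rank 1743. Its ranks were 2106, 680 and 3592, the highest place being that in replicate 2. At Mcm5 the signal was 126.5 and the rank 4040, with ranks 2657 and 5378 in replicates 1 and 3 and no summit inside the region in replicate 2. That summit (3R:10788281) lay 243 bp upstream of Mcm5 and 55 bp upstream of the arginine methyltransferase gene Art1. Mcm3, Mcm6 and Mcm7 had no region in the pooled list, and Mcm6 had none in any replicate list.

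Among the genes that load MCM or restrain loading, dup was bound, and Cdc6 and geminin were not. The gene dup (double parked) encodes the fly Cdt1, and geminin is the protein that blocks it. The stronger of 2 regions at dup had a signal of 226.4 and rank 1789. Its summit (2R:15380667) lay in the 5′ UTR, 53 bp upstream of an internal TSS and 57 bp upstream of the kinase gene SRPK. It was also 321 bp downstream of the outer TSS. The region ranked 1020 and 2009 in replicates 1 and 3 and 11967 in replicate 2. The weaker region, 390 bp upstream of the outer TSS with rank 4468, ranked 3903, 3726 and 4524 and so was among the top regions of every replicate. Geminin had a pooled region of signal 92.2 and rank 6016, 17 bp downstream of the TSS. The strongest region at geminin ranked 4668 in replicate 2, 10745 in replicate 1 and 6712 in replicate 3. The pooled region at Cdc6 had rank 29095, close to the end of the list.

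Both genes of the firing kinase, chif and Cdc7, were bound, and mus101 and Mcm10 were not. The region counted for chif had a signal of 353.0 and rank 845, 84 bp upstream of an internal TSS, with the summit at 2L:16350367 and ranks 1236, 585 and 1001 in the replicates. A weaker region of rank 3733 lay 126 bp upstream of the outer TSS and was among the top regions of replicate 1 alone. An intronic region of the gene, 983 bp from its nearest TSS, ranked 10 with a signal of 2356.6 and ranked 10, 17 and 10 in the replicates. Reads of the transgene and of chif itself cannot be told apart in these lists. Cdc7 had the lowest signal of the bound genes, 124.6 at rank 4116, with the summit (X:6654529) 12 bp upstream of the TSS. That region ranked 2208 and 6220 in replicates 1 and 3 and held no summit of replicate 2. A second Cdc7 region, in an intron 1625 bp from the TSS, had a signal of 329.3 and rank 959, and it ranked 1260, 909 and 979. At both chif and Cdc7 the strongest region of the gene therefore lay in an intron, beyond the distance that the rule counts. The relative of TopBP1 encoded by mus101 had a pooled region of rank 7476 at 26 bp upstream. Mcm10, a factor that binds MCM and is needed to start forks, had no region in any list.

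Of Cdc45 and the GINS subunits, only Psf1 was bound. Its summit (3L:1247970) lay 293 bp upstream of the Psf1 TSS and 50 bp upstream of a TSS of Sac1, a lipid phosphatase gene, with a signal of 219.7 and rank 1871. The ranks were 2707, 1697 and 1998 in the replicates. At a TSS distance of 250 bp Psf1 was no longer bound. The partner subunits Psf3, Psf2 and Sld5 had pooled regions of rank 5675, 7582 and 18854. Psf3, at a signal of 96.5 with the summit 10 bp upstream, ranked 4919 in replicate 1 and 6759 in replicate 3 and had none in replicate 2. Cdc45 had no pooled region and 1 of rank 24209 in replicate 3.

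The polymerases and primase had 3 of 8 genes bound, or 2 at a TSS distance of 250 bp, where Prim1 was lost, and 20.6% was again the background. Of the regions counted within 500 bp of a TSS at the 15 genes that of PolD2 had the highest signal. PolD2 encodes a small subunit of polymerase delta, the enzyme of the lagging strand. Its region (FBgn0027903, 3L:1775443-1775652) had a signal of 427.3 and rank 582, with ranks 863, 566 and 537. The summit was intergenic, 80 bp upstream of PolD2 and 406 bp upstream of CG13933. PolA1, the catalytic subunit of polymerase alpha, had a signal of 188.0 and rank 2366, 56 bp upstream (summit 3R:21671806), with ranks 1723, 3195 and 2527. Prim1, the small subunit of primase, had a signal of 208.3 and rank 2043 (summit 3L:8340606), with ranks 2204, 2666 and 1881. The Prim1 summit was the only one of the 15 downstream of the nearest TSS of its gene, by 292 bp, and it lay 179 bp upstream of CG7083. PolE1, the catalytic subunit of polymerase epsilon, ranked 7190 in the pooled list, PolA2 ranked 11426 and PolE2 ranked 19080. PolD1, the catalytic subunit of polymerase delta, and Prim2, the large subunit of primase, had no pooled region. PolD2 was thus bound while its partner PolD1 had no pooled region. Prim1 was bound, through a summit nearer to CG7083, while Prim2 had no pooled region. Whether partners in 1 enzyme differ more than other genes was not tested.

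The sliding clamp gene PCNA and the clamp loader genes Gnf1, RfC3, RfC4 and RfC38 were not bound. CG8142, which was listed with the clamp loader genes, was bound with a signal of 245.3 and rank 1588. Its ranks were 1787, 880 and 2007, and the summit (X:17844812) lay 108 bp upstream of CG8142 and 137 bp upstream of Ucp4A. PCNA had a pooled region of signal 68.6 and rank 8736, 162 bp upstream. The strongest region at PCNA ranked 7521 in replicate 2 and 22545 and 16646 in replicates 1 and 3. Gnf1, the large loader subunit, ranked 13371 and RfC38 ranked 20015, and RfC3 and RfC4 had no pooled region. Of the RPA genes, which encode the protein that coats single-stranded DNA, RPA1 was bound through the region of Mcm2, 438 bp upstream of its own TSS. At a TSS distance of 250 bp RPA1 was not bound. RPA2 ranked 18769 in the pooled list, and RPA3 had no region in any list.

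Both topoisomerase genes were bound, and the ligase and nuclease genes of the lagging strand were not. Top1, which relaxes supercoils ahead of the fork, had a signal of 349.9 and rank 859, with ranks 632, 545 and 1743. Its summit (X:15323401) lay in an intron, 190 bp upstream of an internal TSS. Top2, which also untangles sister chromatids, had a signal of 177.9 and rank 2543, 83 bp upstream (summit 2L:19453573). The ranks of this region were 973 and 4188 in replicates 1 and 3, and replicate 2 had no summit in it. Another Top2 region, in the 5′ UTR 752 bp from the TSS, had rank 4514 and ranked 3845, 3566 and 5005 in the replicates. DNAlig1, which joins Okazaki fragments, ranked 9199 in the pooled list, and Fen1, which trims their flaps, had no pooled region and 1 of rank 25840 in replicate 3.

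Ribonucleotide reductase, which makes the deoxynucleotides, had its small subunit gene RnrS bound and its large subunit gene RnrL in no list. The RnrS region had a signal of 326.3 and rank 984, with ranks 1481, 642 and 1098. The summit (2R:11985549) lay 156 bp upstream of RnrS and 459 bp upstream of CG34231.

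**Figure D2:**
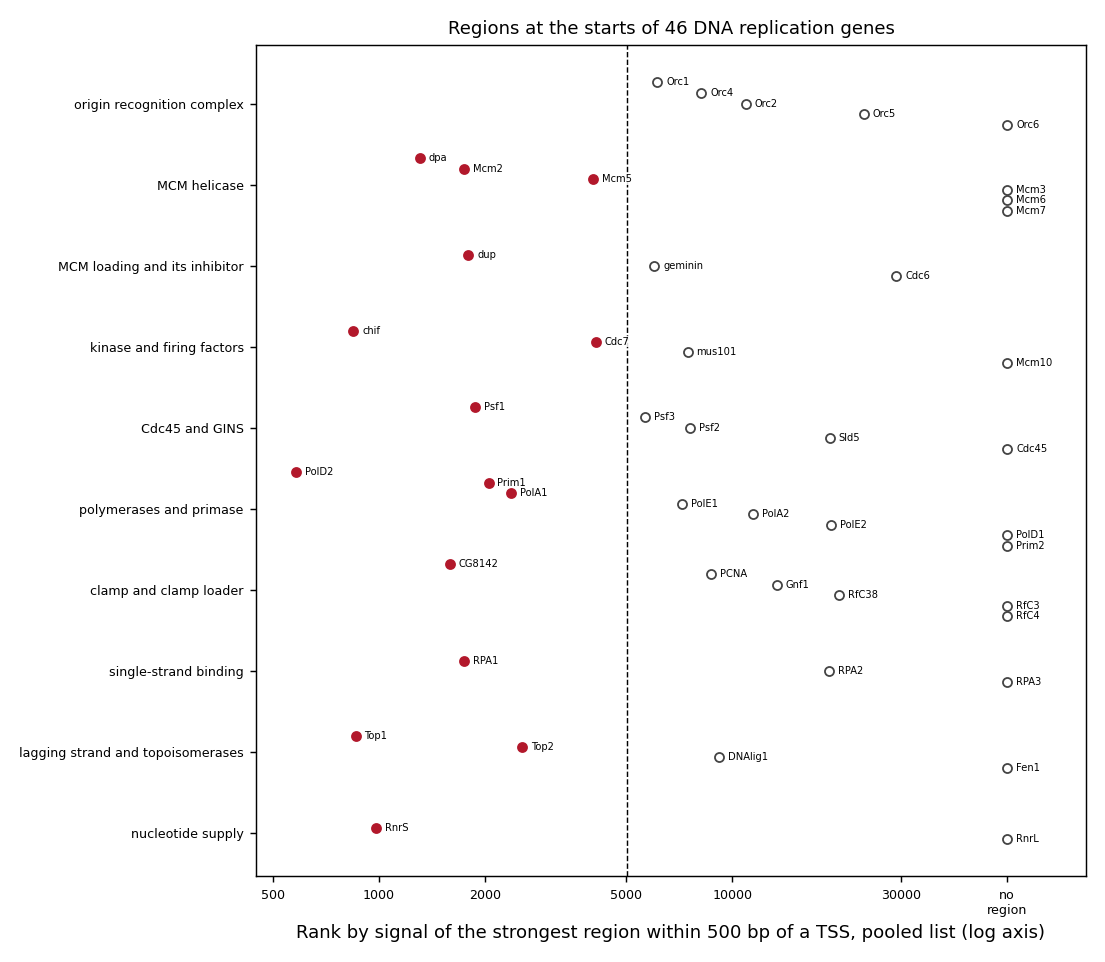
Rank by signal in the pooled list (horizontal log axis) of the strongest region within 500 bp of a TSS, for 46 genes in 10 groups (vertical axis); filled points are bound genes, open points are not, and the dashed line stands at rank 5035, the end of the thresholded list. Filled points run from PolD2 at 582 to Cdc7 at 4116, the ORC row has open points only, and 13 genes sit at the far right with no pooled region.

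The replicates did not back the 15 bound genes equally. The region counted for each gene held a top summit of all 3 replicates at 11 genes, of 2 at dup and Top2, and of 1 at Mcm5 and Cdc7. Among all 2879 bound protein-coding genes, 54.7% had 3 replicates, 34.4% had 2, 10.5% had 1 and 0.452% had none. Replicate 1 backed all 15 replication genes, replicate 3 backed 13 and replicate 2 backed 11, while over all bound genes the shares were 87.5%, 90.5% and 65.4%. In replicate 2 the 12 genes with a summit spanned ranks 545 to 11967, with a median of 780. In replicates 1 and 3 the medians were 1723 and 2007, over ranks 632 to 2707 and 537 to 6220. These medians leave out genes with no summit in the list, so that of replicate 2 is not over the same genes as the others. Replicate 2 had no summit inside the counted regions of Top2, Mcm5 and Cdc7, although it had one in the other regions of Top2 and Cdc7.

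**Figure D3:**
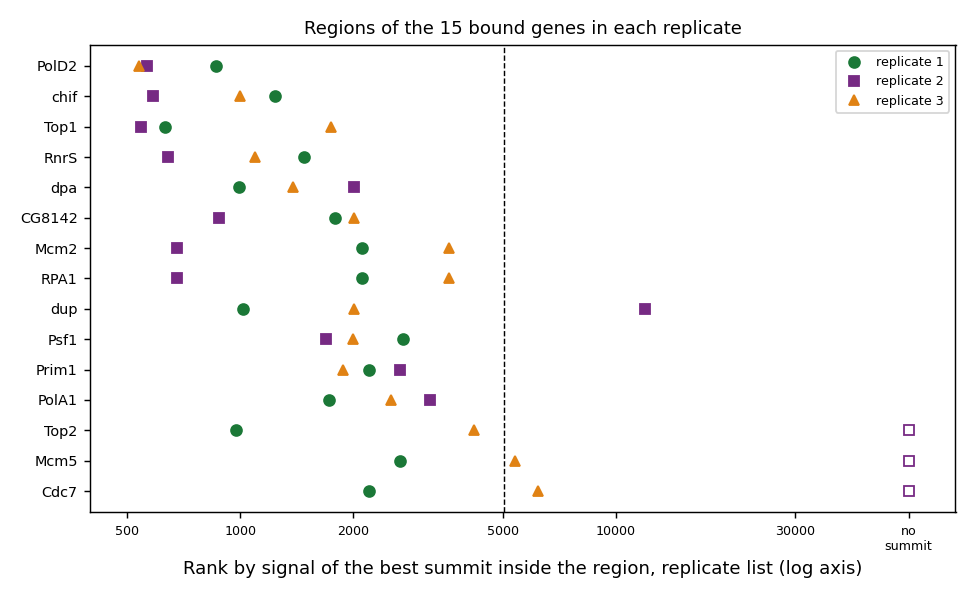
Rank by signal in each replicate list (horizontal log axis) of the best summit inside the region counted for each of the 15 bound genes (vertical axis, in order of pooled signal), with replicates 1, 2 and 3 as circles, squares and triangles. The dashed line stands at rank 5035; open squares at the right show that Top2, Mcm5 and Cdc7 held no summit of replicate 2, and dup in replicate 2 lies at 11967.

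Summits at the bound replication genes lay just upstream of the TSS. Relative to the nearest TSS of the gene, the median position was 84 bp upstream, with 14 of 15 upstream, while for all bound genes the median was 123 bp upstream and 87.7% lay upstream. At dpa and dup the same summit lay downstream of the outer TSS. The summit class was intergenic for 9 genes, intron for 4 and 5′ UTR for 2. The median signal was 230.3 over the 15 genes and 194.6 over all bound genes, with median ranks of 1743 and 2246. The regions were 133 to 410 bp wide with a median of 410, and chif, RnrS, Top1, Mcm2 with RPA1, and PolD2 had narrow ones of 133, 161, 187, 189 and 210 bp.

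**Figure D4:**
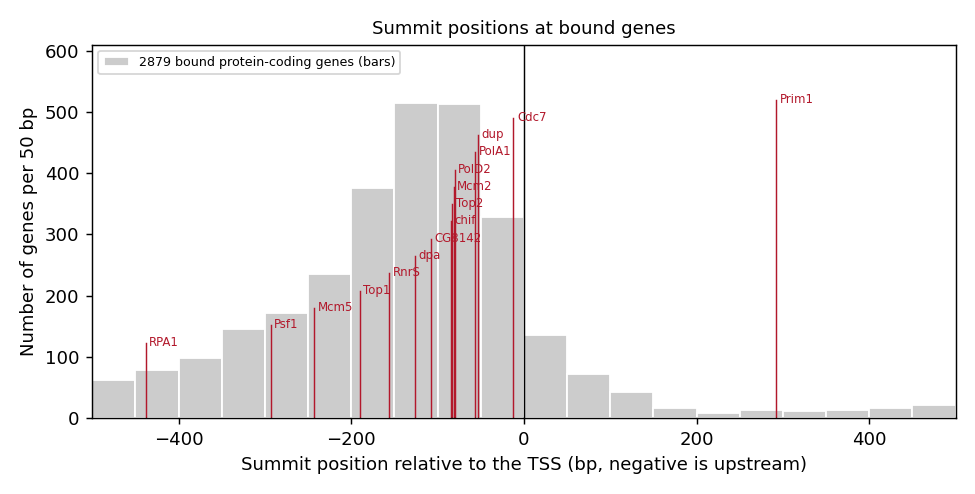
Summit position relative to the nearest TSS of the gene (horizontal axis, bp, negative upstream) for all 2879 bound protein-coding genes as bars (number of genes per 50 bp, vertical axis) and for the 15 bound replication genes as labelled lines, whose heights only spread the names. Of the 15 lines 14 lie upstream, with a median of -84 bp, and Prim1 lies at 292 bp downstream.

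Many of the bound replication promoters lay beside the start of a neighbouring gene. At 11 of the 15 bound genes (73.3%) the same summit lay within 500 bp of a TSS of another protein-coding gene, and over all bound genes this share was 57.1%. The exceptions were chif, Top1, PolA1 and Top2. The gene was itself the nearest one to its summit at 11 of the 15 (73.3%), and this was so for 72.6% of all bound genes. At RPA1, Psf1, Prim1 and Mcm5 the summit lay nearer to Mcm2, Sac1, CG7083 and Art1. Another protein-coding TSS lay within 1000 bp at 32 of the 46 replication genes (69.6%) and at 42.8% of all genes. Of those 32, 13 were bound (40.6%, with 32.2% of all genes of this kind), and of the other 14 genes 2 were bound (14.3%, with 11.9%). The split by near neighbours was chosen after the data had been seen, and its part in the count of bound genes was not tested.

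Weaker regions were listed at many of the 31 genes that were not bound. In the whole pooled list 33 of the 46 genes (71.7%) had a region, with 52.3% of all protein-coding genes. Replicate 1 listed a region at 36 (78.3%, with 52.5%), replicate 2 at 16 (34.8%, with 34.1%) and replicate 3 at 39 (84.8%, with 54.4%). The share in the whole list of replicate 2 was near its background. Of the 31 genes 18 had a pooled region (58.1%), while 39.9% of all protein-coding genes not bound had one. Up to rank 10000 there were 9 of them (29.0%, with 16.0% of all genes not bound), namely Psf3, geminin, Orc1, PolE1, mus101, Psf2, Orc4, PCNA and DNAlig1. The 13 with none were Orc6, Mcm3, Mcm6, Mcm7, Mcm10, Cdc45, Prim2, PolD1, RfC3, RfC4, RPA3, Fen1 and RnrL. Of these Mcm6, Mcm10, RPA3 and RnrL were in no replicate list either, and the other 9 were in at least 1. The thresholded list ended at a signal of 106.2, so that Cdc7 at 124.6 was the nearest gene inside it and Psf3 at 96.5 the nearest outside.

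Motifs known from replication promoters were common in these genes. The share with the DRE was similar in bound and unbound genes, and the share with the E2F site was lower in the bound ones. No difference between bound and unbound genes was tested. The window searched ran from 250 bp before to 50 bp after the start of the gene, its outermost TSS, on both strands. The DRE (TATCGATA) was in 16 of the 46 windows (34.8%), in 9.36% of all protein-coding promoters and in 14.2% of those of bound genes. Among the replication genes it was in 5 of 15 bound and 11 of 31 not bound, and the 5 were chif, Psf1, PolA1, CG8142 and Top2. An E2F site in either form (TTTCGCGC or TTTGGCGC) was in 14 windows (30.4%), in 3.43% of all promoters and in 3.65% of those of bound genes. It was in 2 of 15 bound genes, Psf1 and Top1, and in 12 of 31 not bound. Other forms of the E2F site were not searched, so a window without a match may hold another form. A DRE or an E2F site was in 24 of the 46 (52.2%, with 12.4% of all promoters), 6 of 15 bound and 18 of 31 not bound. All 5 ORC genes had a DRE or an E2F site, 4 of them the E2F site, and none was bound. In the MCM group 1 of 6 had either in this window, the E2F site of Mcm6, a gene in no list. For Top1, chif, dpa and dup the outermost TSS is not the one nearest to the counted summit, and sites beside an internal TSS were not counted in these windows. The E2F site of Top1 and the DRE of chif thus lay beside an outer TSS and not at the counted summit, although chif had a weaker region there. An E2F site lay 84 bp upstream of the internal TSS of dpa and another 19 bp upstream of that of dup.

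Of the 14 summits, 5 had a DRE or an E2F site within 100 bp, with 9.76% of the 2245 promoter summits of the list. The DRE was found at PolA1 and Top2, with 7.71% of all these summits. An E2F site was found at 3, those of Prim1, dpa and dup, with 2.32%. At PolA1 the nearest DRE was centred 4 bp from the summit and at Top2 32 bp from it, as in the sequences printed above. The E-box CAGCTG was found at Prim1, chif and dup, with 12.2% of all these summits. No summit window of the 14 held the M1BP core (GGTCACAC) or the Zelda motif (CAGGTA), which were in 5.48% and 3.83% of all.

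The other motifs lay nearer to the background in the promoter windows than the DRE and the E2F site did, some above it and some below. The M1BP core still stood above it and GAGA below it. Within 100 bp of the gene start the M1BP core was in 15.2% of the 46 (with 6.74% of all promoters) and GAGA in 8.7% (with 22.4%). The M1BP core was in 8 of the 46 (17.4%, with 7.69%), 1 of them bound. CAGCTG was in 7 (15.2%, with 17.6%), none of them bound, and the E-box CACGTG was in 1, Top2, with 4.20% of all promoters. The GAGA motif (GAGAG) was in 9 (19.6%, with 29.7%) and Zelda in none (with 6.24%). The TATA box (TATAAA) was in 25 (54.3%, with 45.8%). The BEAF core (CGATA) lies within the DRE, and counted outside a DRE it was in 20 (43.5%, with 44.7%).

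**Figure D5:**
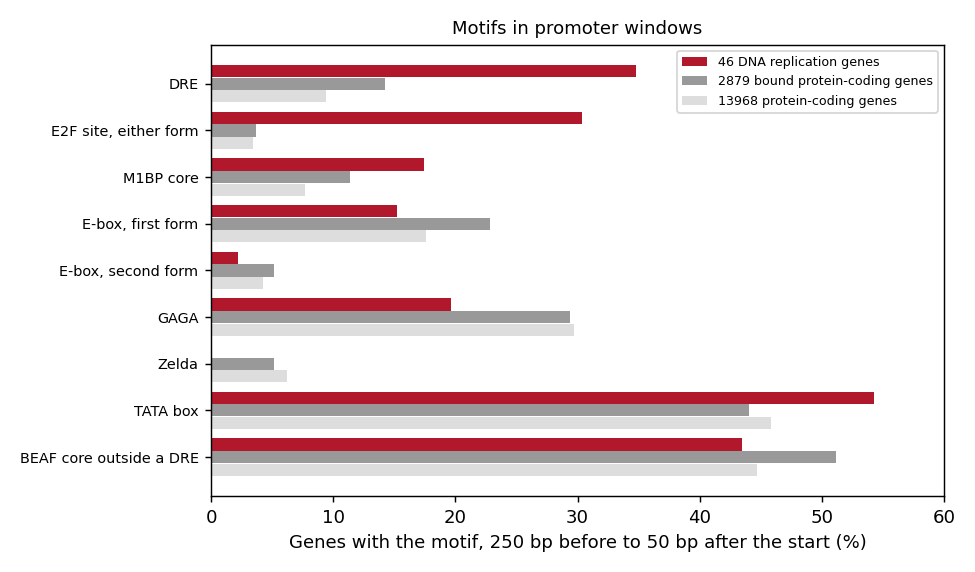
Share of genes with each motif (%, horizontal axis) from 250 bp before to 50 bp after the gene start, for the 46 replication genes, the 2879 bound genes and all 13968 protein-coding genes, by motif (vertical axis, with CAGCTG as the first and CACGTG as the second form of the E-box). The bars for the replication genes stand farthest above the others for the DRE (34.8%) and the E2F site (30.4%). There is no bar for Zelda, which was in none of the 46.

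Genes around the replication machinery were bound as well. From a list of 40 further genes 39 were found, and 15 of them were bound (38.5%, interval 23.4 to 55.4%) beside the background of 20.6%. With regions backed by all 3 replicates 6 were bound (15.4%, interval 5.86 to 30.5%, with 11.3% of all genes), with replicate 1 left out 6 (15.4%, with 12.5%), with replicate 3 left out 7 (17.9%, with 12.0%) and with replicate 2 left out 12 (30.8%, with 16.6%). The background lay inside the interval in the first 3 of these 4 lists. The median signal of the 15 was 183.6. With each region counted only for the gene of the nearest TSS, an alternative chosen after the data had been seen, 8 of these 39 and 11 of the 46 replication genes were bound, with 15% of all genes. By function the 15 genes bound within 500 bp were 1 of 4 other subunits of the same complexes, 4 of 11 genes of fork stability and cohesion, 2 of 8 genes of replication-coupled chromatin and Cdt1 turnover, 6 of 11 genes of S phase control and 2 of 5 genes of deoxynucleotide synthesis. The 4 strongest were CG5757 with a signal of 1498 and rank 38, 369 bp upstream, Dp with 336.1, Ctf4 with 288.6 and Rif1 with 245.4. Dp encodes the partner of E2F, Ctf4 is known from yeast to link helicase and polymerase alpha, and Rif1 is known in flies for late replication of satellite DNA. The CG5757 summit lay 136 bp upstream of CG5098, which is nearer. At Ctf4 the summit lay 145 bp upstream of Ctf4 and 67 bp downstream of CG8067, which is also nearer. At Dp it lay in an intron, 405 bp downstream of the nearest TSS of Dp, and at Rif1 93 bp upstream of Rif1. Each of these 4 strongest genes had a top summit in all 3 replicates. Of the genes in this list for factors that read the DRE or the E2F site, named here after their values were seen, Dref and E2f1 were bound, as was Dp, and E2f2 was not. Dref had a signal of 237.3 and rank 1669, 33 bp upstream and 51 bp upstream of RpL13, with ranks 1266, 25023 and 1427. E2f1 had a signal of 116.8 and rank 4483, with ranks 5891 and 3410 in replicates 1 and 3 and no summit in replicate 2. E2f2 had a pooled region of signal 62.8 and rank 9793. Over the 39 genes the top regions of replicates 1, 2 and 3 gave 17, 7 and 15 genes, with the fewest in replicate 2 (17.9%, with 15.9% of all genes).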

How the data were processed

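Per the file headers and sample notes, the authors deposited narrowPeak lists called from each of the 3 replicates and from their pooled reads, and a list thresholded by the irreproducible discovery rate. The signal of a region, its summit offset in bp and its −log10 q-value were deposited by the authors, and the last was not used. The aligner and the peak caller were not given in the sources used here. Lists on dm3 were not used. Genes came from the Ensembl annotation, release 115, and sequence from the RefSeq copy of the Release 6 assembly, whose lengths the dm6 regions fit. Calculations used Python 3.11.15, pandas 2.3.3, numpy 2.4.6 and scipy 1.17.1, and figures matplotlib 3.10.9. Checks on simulated regions with known positions passed. Depth is unknown, so no interval on signal is given. With 1 group, p-values were not computed.

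The 46 genes, the 40 further genes, the motif list and the functional groups were chosen with earlier results of these data known. All bound genes and all genes not bound are named, and of the further genes the 4 bound ones of highest signal. Outside this rule Dref, E2f1, E2f2 and Orc3 (lat) were named after their values had been seen. Of the further genes mms22 was not found, and 6 were found under other symbols. The rule for printed sequence was up to 6 bound genes of highest signal off arm 2R and up to 3 genes with no pooled region. CG8142 and Psf1, which it also allowed, gave way to PolA1 and Top2, and Orc5 was added. The combined motif counts (either E2F form, DRE or E2F, BEAF core outside a DRE) were added after the data had been seen. The alternatives were other TSS distances, a stricter and a weaker list, each replicate left out, regions backed by all replicates, overlap of the region with a TSS and the nearest TSS alone.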

Additional observations from a re-analysis of the deposited data

How the results depend on the processing

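The count of 15 bound replication genes was 12 at a TSS distance of 250 bp (with 16.5% of all genes) and 15 at 1000 bp (with 23.8%). It was 12 in the higher-signal part (with 11.4%) and 12 with regions of all 3 replicates (with 11.3%). With a replicate left out it was 12 to 13 (with 12.0% to 16.6%). It moved to 33 in the whole pooled list (with 52.3% of all genes) and to 9 when the region had to overlap a TSS (with 13.3%). The count of 15 further genes was 12 at 250 bp (with 16.5% of all genes) and 17 at 1000 bp (with 23.8%). It moved to 8 in the higher-signal part (with 11.4% of all genes) and to 32 in the whole pooled list (with 52.3%). With overlap it was 9 (with 13.3%) and with the nearest TSS alone 8 (with 15%). Regions of all 3 replicates gave 6 (15.4%, with 11.3%). With a replicate left out it was 6 to 12. The shares were 15.4% (with 12.5%) without replicate 1, 30.8% (with 16.6%) without replicate 2 and 17.9% (with 12.0%) without replicate 3. Functional groups with a bound gene numbered 9 and ran from 6, under overlap, to 10, in the whole pooled list. The cause of these moves was not tested, beyond a pooled list that is longer by construction. The median summit position of -84 bp ran from -117 to -84 bp with a replicate left out, and the 16 genes with a DRE became 15 within 100 bp of the gene start. The signal given for chif became 2356.6 at 1000 bp, from its intronic region. No paired analysis was possible because the 3 replicates form 1 group. Lists of fixed length cannot show how much was bound in each replicate, and 1 control and no untagged library limit every count.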
